A study of Mus musculus with 8 samples.

Results

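The T cell receptor signalling machinery was described here by 37 genes, chosen by name from their known roles, among 24421 genes in the deposited count table. They are 4 receptor chains, 3 coreceptors and adhesion receptors, 4 tyrosine kinases, 5 adaptors, 5 phosphatases or genes of the inhibitory kinase Csk, 8 negative regulators and 8 downstream enzymes. All 37 had a row and all passed the filter on low counts, which left 12363 genes for testing. Calcineurin and the NFAT factors were not included. The data are RNA-seq counts from follicular regulatory T (TFR) cells of mouse spleen, sorted as Foxp3+YFP+ CXCR5+ PD1+ cells from CD4+ T cells enriched with a kit. Of the 8 libraries, 4 came from Blimp1-flox Foxp3-cre mice, called Blimp1-flox here, and 4 from wild-type (WT) mice. Mice of both groups had been given peanut with cholera toxin by mouth 2 times, and the cells were taken 36 days later. Foxp3-cre acts in Foxp3-expressing cells, so the floxed gene is a target in all regulatory T cells and not in TFR cells alone. The labels leave out the age of the mice, the cre status of the WT mice, the number of floxed alleles and whether each library was a separate mouse. The p-values measure the spread between these libraries, which may be partly technical.

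Antigen binding to the T cell receptor leads the kinase LCK to phosphorylate tyrosines in the CD3 and CD247 (zeta) chains, where the kinase ZAP70 docks. ZAP70 then phosphorylates the scaffolds LAT and SLP-76, on which phospholipase C gamma, exchange factors for small GTPases and the route to NF-kB assemble. Phosphatases, the kinase CSK, ubiquitin ligases and diacylglycerol kinases hold this cascade in check, and regulatory T cells depend on receptor signals for their suppressive function. Blimp1, encoded by Prdm1, is a transcriptional repressor of effector and regulatory T cells.

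No gene of the machinery passed the test between the genotypes. In edgeR's quasi-likelihood test 0 of 37 members were called at an adjusted p under 0.05, where 0.501% of all tested genes were called (0.259% higher and 0.243% lower in Blimp1-flox). DESeq2 called 0 members, against 3.58% of all tested genes (1.52% higher, 2.05% lower), and limma-voom with quality weights called 0, against 4.09% (1.76% higher, 2.33% lower). At an unadjusted p under 0.05, edgeR had 5 members, or 13.5%, beside 16.2% of all tested genes. Of those 5, Mapk3 was higher in Blimp1-flox cells (1 of 37, or 2.70%, against 7.11% of all tested genes), and Lcp2, Pag1, Cblb and Dgka were lower (10.8%, against 9.05%). DESeq2 had 6 members at that threshold, beside 17.2% of all tested genes, with 1 higher (background 7.94%) and 5 lower (background 9.23%). In limma-voom there were 7, beside 24.0%, with 1 higher (background 11.4%) and 6 lower (background 12.6%). Over both directions the member shares in edgeR, DESeq2 and limma-voom (13.5%, 16.2% and 18.9%) were below the background. The shares higher (2.70% in each tool) were below it too. The shares lower (10.8%, 13.5% and 16.2%) were above it, and they rest on 4, 5 and 6 members. The smallest adjusted p of any member was 0.187 (Dgka) in edgeR, 0.0904 (Dgka) in DESeq2 and 0.0806 (Cblb) in limma-voom. At a threshold of 0.10 edgeR with all libraries, which then called 1.47% of all tested genes, still called 0. The other tools did not: Dgka lay under 0.10 in DESeq2, and Cblb and Lcp2 (adjusted p = 0.0907) in limma-voom. Without Blimp1-flox 2, Cblb lay under 0.10 in edgeR too (adjusted p = 0.0968). The shares of all tested genes under 0.10 in these other fits were not counted.

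The median log2 fold change of the members, Blimp1-flox over WT, was -0.069, and that of all tested genes was 0.0012. Members ran from -0.54 to 0.30, with 23 below 0 (62.2%, against 49.9% of all tested genes) and 14 above 0. None lay beyond 1 in either direction, where 3.32% of all tested genes did. The difference of group means on the log2 scale was smaller than the pooled SD within groups for 24 members (64.9%), against 61.9% of all tested genes. The 95% interval of the fold change lay inside a 1.5-fold change in either direction for 31 members (83.8%), against 59.5% of all tested genes. For Txk, Grap2, Pag1, Cblb, Rasgrp1 and Sos1 the interval reached past 1.5-fold, and for Pag1 it reached past 2-fold, a bound that held for 36 members (97.3%) and 80.7% of all tested genes. Those 6 genes include the 5 members with the lowest level per kilobase. The background shares cover tested genes of all levels, and most members were abundant. The median SE of the log2 fold change was 0.10 over members and 0.14 over all tested genes. Over the 8295 tested genes in the members' range of levels it was 0.12. The part of level in these shares was not tested. In bulk samples, fewer cells of a type and less RNA per cell cannot be told apart.

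**Figure D1:**
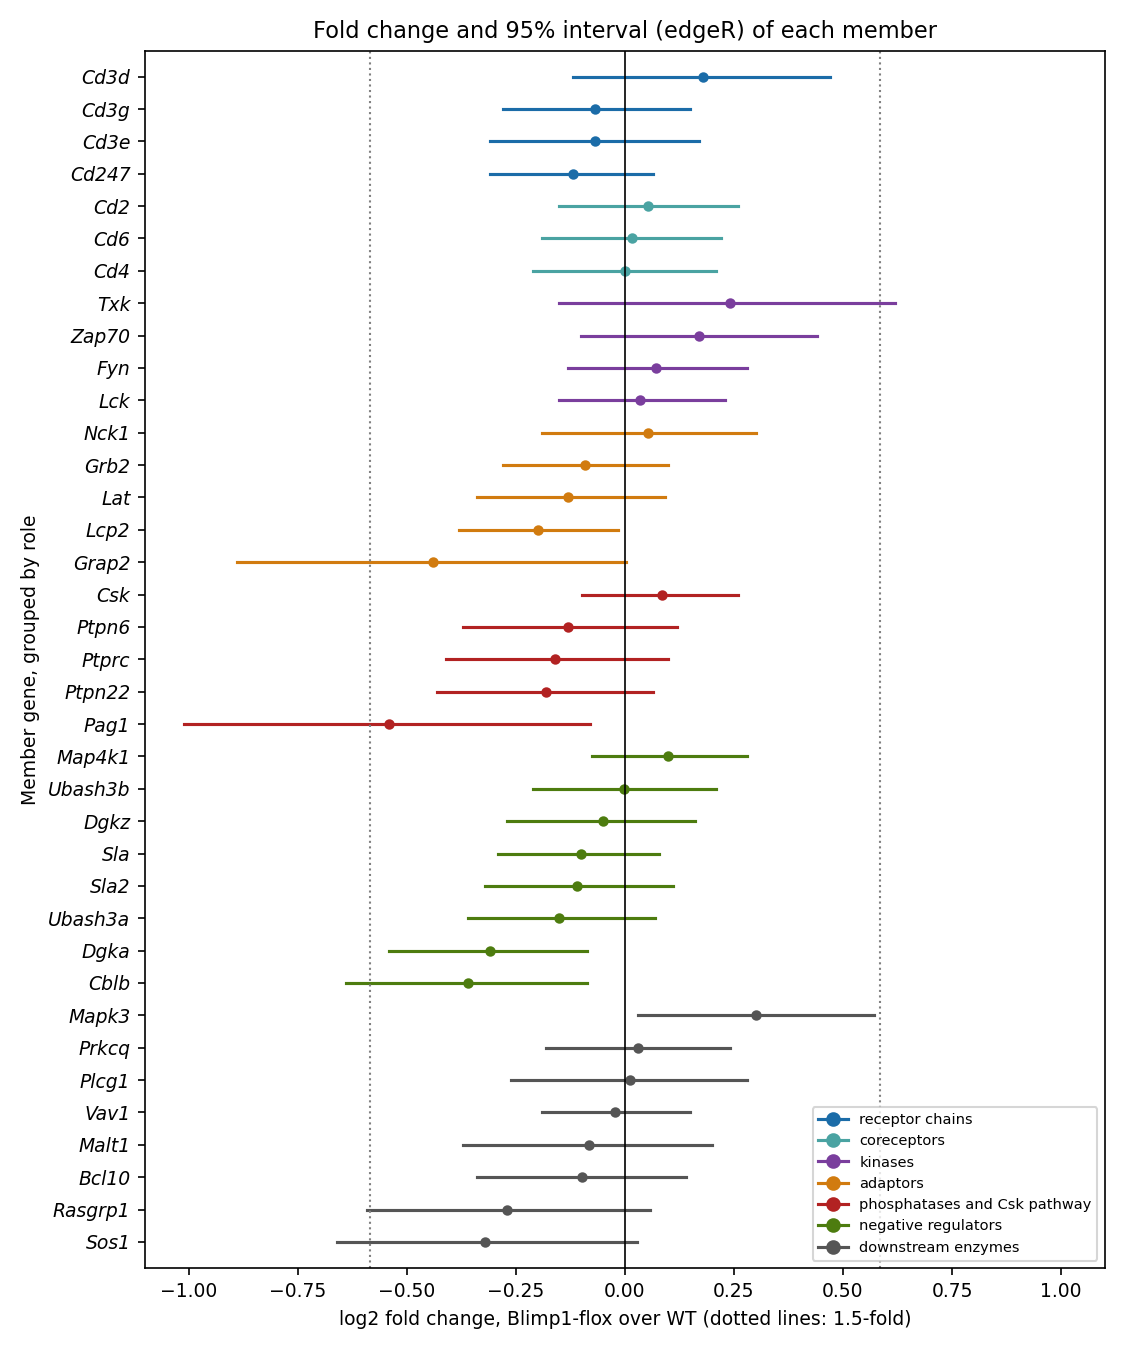
The log2 fold change of each of the 37 members, Blimp1-flox over WT, is plotted as a point with its 95% interval from edgeR on the horizontal axis, with genes grouped and coloured by role on the vertical axis. Dotted lines mark a 1.5-fold change, and 31 of the 37 intervals lie between them.

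The deletion and the purity of the libraries were checked first. Prdm1 (chromosome 10, 44437174 to 44458748, mm10) had 13.4, 7.53, 9.60 and 16.6 CPM (TMM-scaled CPM, the share of a library's counts on a common scale) in the Blimp1-flox libraries, against 39.1, 31.8, 65.1 and 71.0 CPM in WT. The groups did not overlap, and Prdm1 fell by 2.14 ± 0.31 (SE) on the log2 scale (edgeR adjusted p = 0.0203). That call was lost without Blimp1-flox 1 (log2 fold change -2.21, edgeR adjusted p = 0.103) and with no filter on low counts (edgeR adjusted p = 0.0502). Library totals ran from 16425538 to 27595939 counts in Blimp1-flox and from 22788722 to 26279365 in WT. On principal components of log2 CPM, Blimp1-flox 3 and WT 4 each stood apart from their groups. The summed level of 7 TFR markers ran from 5263 to 6195 CPM in Blimp1-flox and from 4984 to 6235 CPM in WT (exact two-sided permutation test, p = 0.8). Of these markers, Cxcr5 ran from 475 to 568 CPM in Blimp1-flox and from 391 to 506 CPM in WT. Pdcd1, which encodes PD1, ran from 776 to 1477 CPM in Blimp1-flox and from 774 to 1180 CPM in WT. Icos ran from 491 to 591 CPM and from 431 to 515 CPM, and Ctla4 from 800 to 960 CPM and from 877 to 1288 CPM, in the same order. Foxp3 ran from 55.7 to 75.5 CPM in Blimp1-flox and from 72.5 to 105 CPM in WT, and Cd8a was at or under 0.351 CPM in every library. The summed level of 16 B cell markers, none at 0 in all libraries, ran from 211 to 279 CPM in Blimp1-flox and from 247 to 931 CPM in WT. The highest was WT 4, where 15 of the 16 markers peaked. The B cell sums overlapped between genotypes (exact two-sided permutation test, p = 0.114). Sums of 5 CD8 T and NK cell markers were 48.1 to 50.6 CPM in Blimp1-flox and 26.2 to 43.7 CPM in WT, without overlap (exact two-sided permutation test, p = 0.0286, the smallest that 70 assignments allow). Most of that sum came from Klrb1c and Cd8b1, while the defining NK gene Ncr1 was at or under 0.112 CPM. Myeloid, plasma cell, platelet and erythroid, and pancreas acinar marker sums overlapped between the genotypes, with ranges of 3.09 to 55.5, 217 to 325, 1.52 to 2.56 and 39.8 to 80.5 CPM in Blimp1-flox and of 15.8 to 33.2, 228 to 311, 1.05 to 4.74 and 31.6 to 56.6 CPM in WT. Most of the plasma cell sum came from Xbp1 and most of the acinar sum from Cela1, so these sums say little about the other markers. Cela1 alone did not overlap, at 39.7 to 67.3 CPM in Blimp1-flox and 27.5 to 34.3 CPM in WT (edgeR adjusted p = 0.103). The haemoglobin genes Hba-a1 and Hbb-bs and the amylase gene Amy2a5 were at 0 in all libraries.

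Because the deleted gene encodes a DNA-binding repressor, the 250 bases upstream of each member's start sites were read from RefSeq promoters (GRCm38.p6) and searched on both strands. The letters searched were AGNGAAAG, a loose form of the Blimp1 recognition motif, and ACTTCC, which ETS family factors bind. In the first, N was any base: C in the match of Ptpn22, G in that of Map4k1 and A in those of Dgka, Grb2 and Ubash3b. Of the 37 members 30 had an entry, with 45 start sites in all. AGNGAAAG was present for 5 of the 30, Grb2, Ptpn22, Ubash3b, Dgka and Map4k1 (16.7%), against 8.42% of 27025 genes. Per start site it was present in 5 of 45 windows, against 7.30% of 32851. ACTTCC was present for 13 of 30 members (43.3%), against 22.2% of genes, and no member window held overlapping copies of the motifs. A match to these letters is no evidence of binding, and members with several start sites have more bases to match. Windows of 3 of the 5 are shown, chosen after their values were seen: the member with the smallest p (Dgka), the member higher in every Blimp1-flox library (Map4k1) and a phosphatase of LCK and ZAP70 (Ptpn22). Each window is given on the strand of its gene, upstream base first, and the capitals mark AGNGAAAG or its reverse complement. The windows are chr3:103859545-103859794 (plus strand) for Ptpn22, chr7:28981800-28982049 (plus strand) for Map4k1 and chr10:128745085-128745334 (minus strand) for Dgka.
Ptpn22: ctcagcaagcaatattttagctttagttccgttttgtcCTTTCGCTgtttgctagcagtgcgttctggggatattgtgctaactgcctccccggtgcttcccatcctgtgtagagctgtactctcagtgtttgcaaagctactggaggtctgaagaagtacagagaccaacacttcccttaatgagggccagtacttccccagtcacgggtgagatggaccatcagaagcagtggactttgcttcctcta
Map4k1: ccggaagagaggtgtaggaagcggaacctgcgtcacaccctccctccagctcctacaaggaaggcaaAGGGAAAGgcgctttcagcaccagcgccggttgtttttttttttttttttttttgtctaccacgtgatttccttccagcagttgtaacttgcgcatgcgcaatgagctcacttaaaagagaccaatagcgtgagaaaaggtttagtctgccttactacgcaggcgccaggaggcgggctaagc
Dgka: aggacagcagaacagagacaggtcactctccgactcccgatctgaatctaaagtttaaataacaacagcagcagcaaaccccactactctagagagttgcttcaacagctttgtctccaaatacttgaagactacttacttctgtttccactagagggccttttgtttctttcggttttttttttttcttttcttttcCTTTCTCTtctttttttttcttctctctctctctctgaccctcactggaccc
The match begins 212 bases before the RefSeq start site in Ptpn22, 183 bases before it in Map4k1 and 52 bases before it in Dgka. In the deposited table Ptpn22 begins at 103859795, next to its window. There Map4k1 begins at 28982854 and Dgka, on the minus strand, at 128744056, so their windows do not adjoin the counted genes. The log2 fold changes of these genes were -0.18, 0.10 and -0.31, and those of Grb2 and Ubash3b were -0.091 and -0.0022. None passed (edgeR adjusted p from 0.187 to 0.992).

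Most of the machinery was abundant. On a scale of CPM per kilobase of exon, 25 of 37 members lay above the 90th percentile of tested genes and 30 above the 75th. The median member had 133 CPM per kilobase and the median tested gene 11.0. Lck and Cd2 were highest. Lck had 1123 ± 52.6 CPM per kilobase in Blimp1-flox and 1096 ± 80.5 in WT (SD, n = 4 each). Cd2 had 1130 ± 98.5 CPM per kilobase in Blimp1-flox and 1088 ± 90.9 in WT. Cd3g and Cd3e followed, at 1023 ± 96.0 and 936 ± 52.9 CPM per kilobase in Blimp1-flox and 1073 ± 95.1 and 982 ± 149 in WT. Neighbours in this order differed by less than the larger of their SDs within each genotype, except Cd2 and Cd3g in Blimp1-flox. Below the median of tested genes lay Txk, Grap2, Sos1 and Pag1, the last at 1.36 ± 0.234 CPM per kilobase in Blimp1-flox and 1.98 ± 0.612 in WT. Together the members took 2.43% to 2.58% of all counts in the Blimp1-flox libraries and 2.53% to 2.62% in WT.

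**Figure D2:**
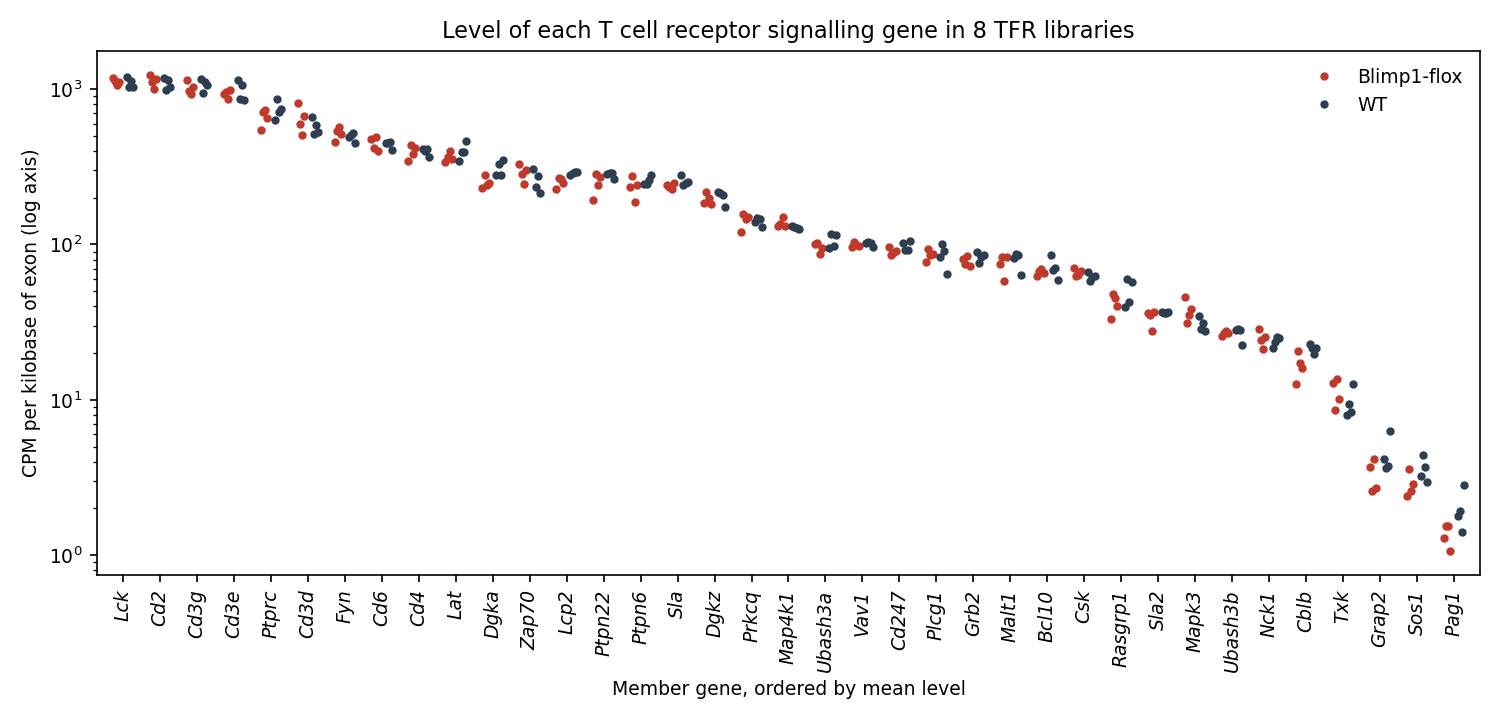
Each library's level of the 37 members is plotted in CPM per kilobase of exon on a log axis, with genes ordered from the highest mean to the lowest and Blimp1-flox libraries to the left of WT libraries. Levels run from those of Lck and Cd2 at the top to that of Pag1 at the bottom, and the genotypes overlap for every member except Lcp2 and Map4k1.

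Of the 4 receptor chains, 3 differed between genotypes by less than the pooled SD of log2 CPM, Cd247 by more, and none passed. Cd3d, Cd3e and Cd3g encode the delta, epsilon and gamma chains that pair in the receptor complex and carry its phosphorylated signalling motifs. They lie in 1 cluster on mouse chromosome 9, where Cd3g (44969572 to 44980431, minus strand) and Cd3d (44981786 to 44987052, plus strand) are 1354 bases apart. Cd3g had 1177, 1001, 949 and 1060 CPM in Blimp1-flox, against 1196, 969, 1141 and 1083 CPM in WT. The values overlapped throughout, and its log2 fold change was -0.068 with a 95% interval from -0.28 to 0.15 (edgeR adjusted p = 0.768). Cd3e had a log2 fold change of -0.069 (-0.31 to 0.17). Cd3d was the 1 receptor chain with a positive value, 0.18 (-0.12 to 0.47), and in Blimp1-flox it varied most of the 4, at 864 ± 175 CPM in Blimp1-flox and 764 ± 87.6 CPM in WT (SD, n = 4 each). Its highest library was Blimp1-flox 1 with 1089 CPM and its lowest Blimp1-flox 3 with 678 CPM. The log2 fold change of Cd3d was 0.046 without Blimp1-flox 1 and 0.28 without Blimp1-flox 3. Cd247, the zeta chain, which carries the most signalling motifs of any chain, had a log2 fold change of -0.12 (-0.31 to 0.065), and its exons overlap those of Pou2f1, so its counts are uncertain.

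Coreceptors and adhesion receptors were the group with the narrowest range, from 0.00061 to 0.054 on the log2 fold change scale. Cd4, the coreceptor that brings LCK to the receptor, averaged 1227 ± 127 CPM in Blimp1-flox and 1226 ± 64.3 CPM in WT (SD, n = 4 each), with a 95% interval of the log2 fold change from -0.21 to 0.21. Cd2, an adhesion receptor that lowers the threshold for activation, had 1420, 1277, 1149 and 1324 CPM in Blimp1-flox libraries, against 1358, 1131, 1303 and 1187 CPM in WT libraries. Those ranges overlapped almost wholly (log2 fold change 0.054, edgeR adjusted p = 0.818). Cd6, a scavenger receptor family protein that scaffolds signalling proteins at the receptor, had a log2 fold change of 0.016 (-0.19 to 0.22).

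All 4 tyrosine kinases had positive log2 fold changes, and none passed. Lck had 2727, 2609, 2438 and 2549 CPM in Blimp1-flox, against 2756, 2376, 2575 and 2367 CPM in WT. The groups overlapped, and the log2 fold change of 0.035 had a 95% interval from -0.15 to 0.23 (edgeR adjusted p = 0.877). Exons of Lck overlap the annotated microRNA gene Mir8119. For Fyn, another Src family kinase in T cells, the log2 fold change was 0.071 (-0.13 to 0.28). Zap70, the kinase that binds phosphorylated receptor chains, had 0.17 (-0.10 to 0.44), with 0.091 without WT 4, its lowest library, 0.10 without Blimp1-flox 1 and 0.26 without WT 1. Txk, a Tec family kinase of T cells, was much less abundant, at 27.6 ± 5.60 CPM in Blimp1-flox and 23.4 ± 5.11 CPM in WT (SD, n = 4 each). Its log2 fold change was 0.24 (-0.15 to 0.62) with all libraries, 0.13 without Blimp1-flox 3 and 0.40 without WT 4.

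Among the adaptors, Lcp2 was the 1 member of the whole machinery that was lower in every Blimp1-flox library than in every WT library. Lcp2 (chromosome 11, 34047201 to 34092280) encodes SLP-76, the cytosolic scaffold that joins LAT to phospholipase C gamma and VAV1. It had 759, 891, 889 and 838 CPM in Blimp1-flox, against 945, 967, 979 and 982 CPM in WT. The SD over the 4 WT libraries was only 16.9 CPM, against 62.0 CPM over the Blimp1-flox libraries, and Blimp1-flox 1 was the lowest of all. Lcp2 had a log2 fold change of -0.20 ± 0.084 (SE) and a 95% interval from -0.38 to -0.015, and after adjustment it did not pass (edgeR adjusted p = 0.278). In the opposite direction, Map4k1 alone did not overlap, and the 2 members make 5.41% of 37, against 8.47% of all tested genes without overlap. In each direction that is 1 of 37, or 2.70%, against 3.75% of all tested genes higher and 4.72% lower.

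Lat, the membrane scaffold phosphorylated by ZAP70, had 419, 449, 494 and 439 CPM in Blimp1-flox, against 427, 483, 488 and 569 CPM in WT. The groups overlapped, and WT 4 was highest. For Lat the log2 fold change was -0.13 (edgeR adjusted p = 0.559), and -0.049 without WT 4. Grap2 encodes GADS, which links LAT to SLP-76. It had 20.9, 14.6, 23.2 and 15.2 CPM in Blimp1-flox libraries, against 23.2, 20.4, 21.2 and 35.6 CPM in WT libraries. WT 4 stood well above all others, and the remaining 7 libraries overlapped. For Grap2 the log2 fold change was -0.44 (-0.89 to 0.0018; edgeR adjusted p = 0.311) and -0.23 without WT 4. Grb2, which carries SOS to phosphorylated LAT, had -0.091, and Nck1, an adaptor to the actin machinery, had 0.053.

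Most of the phosphatase and Csk group had negative fold changes without passing. Ptprc encodes CD45, which activates Src family kinases by removing an inhibitory phosphate. It had the most counts of any member, at 3112, 4065, 4185 and 3703 CPM in Blimp1-flox against 3601, 4926, 4060 and 4206 CPM in WT. The ranges overlapped, with the extremes in Blimp1-flox 1 and WT 2 (log2 fold change -0.16, 95% interval -0.41 to 0.10, edgeR adjusted p = 0.544). Without Blimp1-flox 1 the log2 fold change of Ptprc was -0.076, and without WT 2 it was -0.070. Ptpn6, the phosphatase SHP-1, and Ptpn22, a phosphatase of LCK and ZAP70, had log2 fold changes of -0.13 and -0.18. Ptpn22 was 561 CPM in Blimp1-flox 1 and 693 to 822 CPM in the other Blimp1-flox libraries, beside 756 to 836 CPM in WT, and its log2 fold change was -0.084 without Blimp1-flox 1. Csk, the kinase that places the inhibitory phosphate on LCK, had a log2 fold change of 0.084 (-0.098 to 0.26).

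Pag1, the membrane anchor of CSK, had the lowest log2 fold change of the 37 members, -0.54 ± 0.21 (SE), and also the lowest level per kilobase. It had 10.6, 12.8, 12.7 and 8.73 CPM in Blimp1-flox libraries, against 14.7, 15.7, 11.6 and 23.5 CPM in WT libraries. WT 3 lay inside the Blimp1-flox range, and WT 4 lay far above the other WT libraries. The 95% interval ran from -1.01 to -0.079 (edgeR adjusted p = 0.249). Without WT 4 the log2 fold change of Pag1 was -0.32. WT 4 was also the library with the highest B cell marker sum, 931 CPM against 247 to 389 CPM in the other WT libraries, and the part of B cell RNA in the values of Pag1 and Grap2 was not tested.

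Negative regulators gave 7 of 8 log2 fold changes below 0, with a median of -0.11. Dgka, which encodes the alpha isoform of the diacylglycerol kinases that remove the lipid activator of RASGRP1 and protein kinase C, had the smallest p of the 37. It had 648, 789, 676 and 697 CPM in Blimp1-flox, against 787, 927, 786 and 987 CPM in WT. Blimp1-flox 2 just exceeded WT 1 and WT 3, and every other Blimp1-flox library lay below all WT libraries. Dgka had a log2 fold change of -0.31 ± 0.10 (SE) and a 95% interval from -0.54 to -0.087 (edgeR adjusted p = 0.187). Exons of Dgka overlap those of Pmel. Dgkz, the zeta isoform, had a log2 fold change of -0.051 (-0.27 to 0.16).

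Cblb, a ubiquitin ligase that limits activation in the absence of costimulation, had 80.3, 131, 109 and 101 CPM in Blimp1-flox, against 145, 137, 125 and 136 CPM in WT. Blimp1-flox 2 lay above WT 3, and the rest of the Blimp1-flox libraries were below all WT libraries. For Cblb the log2 fold change was -0.36 ± 0.13 (SE), from -0.64 to -0.087 (edgeR adjusted p = 0.207). It was -0.49 without Blimp1-flox 2 and -0.25 without Blimp1-flox 1. Ubash3a and Ubash3b, phosphatases of the STS family that act on phosphorylated kinases, had -0.15 and -0.0022. Sla and Sla2, Src-like adaptors that promote receptor and kinase turnover, had -0.10 and -0.11, and exons of Sla2 overlap those of 1110008F13Rik. Map4k1, the kinase HPK1 that phosphorylates SLP-76 and marks it for degradation, was higher in every Blimp1-flox library, at 355 to 406 CPM against 338 to 352 CPM in WT. Its log2 fold change was only 0.10 (-0.076 to 0.28; edgeR adjusted p = 0.567), and its groups overlapped once a trend of fold change with gene length had been taken out.

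Downstream enzymes were split, with 3 positive and 5 negative fold changes. Mapk3, the kinase ERK1 at the end of the RAS cascade, had the highest log2 fold change of the machinery, 0.30 ± 0.13 (SE). It had 81.1, 55.5, 62.0 and 67.6 CPM in Blimp1-flox, against 61.2, 50.3, 55.1 and 49.3 CPM in WT. Blimp1-flox 2 lay between WT 3 and WT 1, and Blimp1-flox 1 was the highest library. The 95% interval of Mapk3 ran from 0.030 to 0.57 (edgeR adjusted p = 0.268), and without Blimp1-flox 1 the log2 fold change was 0.19.

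Rasgrp1 and Sos1 encode exchange factors that load RAS with GTP, the first recruited by diacylglycerol and the second by GRB2. Rasgrp1 had 169, 244, 229 and 204 CPM in Blimp1-flox libraries, against 202, 304, 219 and 292 CPM in WT libraries. WT 2 and WT 4 lay above all others, and WT 1 and WT 3 lay inside the Blimp1-flox range (log2 fold change -0.27, edgeR adjusted p = 0.401). The log2 fold change of Rasgrp1 was -0.17 without Blimp1-flox 1 and also -0.17 without WT 2. Sos1 had 21.5, 32.1, 23.1 and 25.8 CPM in Blimp1-flox, against 28.8, 39.6, 32.9 and 26.4 CPM in WT. Blimp1-flox 2 lay inside the WT range and the others below it (log2 fold change -0.32, edgeR adjusted p = 0.350), and without WT 2 the value was -0.20.

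Prkcq encodes protein kinase C theta, which opens the route to NF-kB, and was the most abundant downstream enzyme per kilobase. It had 402, 519, 480 and 501 CPM in Blimp1-flox, against 462, 492, 481 and 428 CPM in WT. The WT range lay wholly inside the Blimp1-flox range (log2 fold change 0.029, 95% interval -0.18 to 0.24, edgeR adjusted p = 0.914). Bcl10 and Malt1, which act in a complex downstream of this kinase, had log2 fold changes of -0.098 and -0.083. Plcg1, the phospholipase that makes the calcium and diacylglycerol signals, had 0.011, and Vav1, an exchange factor for small GTPases, had -0.023 with a 95% interval from -0.19 to 0.15.

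**Figure D3:**
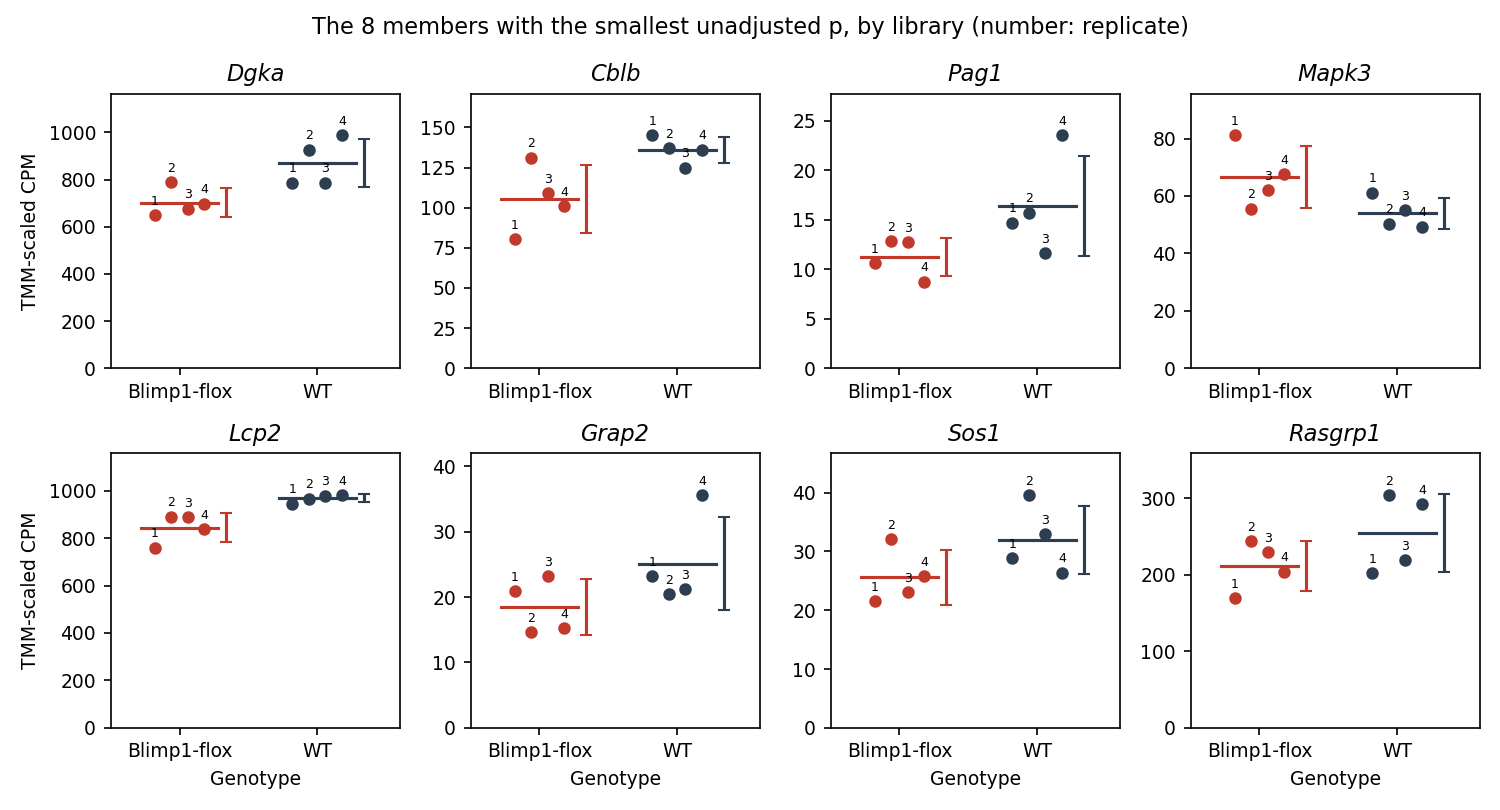
TMM-scaled CPM of the 8 members with the smallest unadjusted p is plotted by genotype, with 1 numbered point per library, a line at the group mean and a bar of 1 SD beside it. Only Lcp2 shows no overlap between Blimp1-flox and WT, and WT 4 stands high for Pag1 and Grap2.

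Ratios between related members do not depend on how libraries are scaled, and 4 such pairs were compared. The log2 ratio of Dgka over Dgkz counts was -0.31, -0.28, -0.37 and -0.20 in Blimp1-flox, against -0.27, -0.028, -0.20 and 0.37 in WT. WT 1 and WT 3 lay within or at the edge of the Blimp1-flox range, WT 2 above it and WT 4 farthest above it. The difference was -0.26 (exact two-sided permutation test, p = 0.0571, adjusted p = 0.229 over 4 pairs). It was -0.12 without WT 4 and -0.096 without WT 4 and Blimp1-flox 3 (exact two-sided permutation tests, adjusted p of 0.457 and 0.800). Lck over Fyn averaged 0.43 ± 0.20 in Blimp1-flox and 0.47 ± 0.11 in WT (log2 ratios, SD, n = 4 each). Ubash3a over Ubash3b averaged 1.70 ± 0.14 in Blimp1-flox and 1.85 ± 0.27 in WT, and Sla over Sla2 3.14 ± 0.15 in Blimp1-flox and 3.13 ± 0.091 in WT. None of these 3 differed beyond the spread (exact two-sided permutation tests, adjusted p from 0.857 to 0.914).

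Variation between libraries of 1 genotype was modest. The coefficient of variation of CPM had a median over members of 9.38% in Blimp1-flox and 8.87% in WT, where the medians over tested genes in the same range of levels were 10.8% and 10.8%. Lows and highs were spread unevenly over the libraries. Blimp1-flox 1 was the lowest of the 8 for 11 members (29.7%, against 18.1% of all tested genes), among them Cblb, Dgka, Lcp2, Ptpn22 and Ptprc, and the highest for 6, among them Cd3d, Zap70 and Mapk3 (16.2%, against 19.6% of all tested genes). It was also the library with the fewest counts. WT 4 was the lowest for 10 members (27.0%, against 19.7% of all tested genes), among them Cd3e, Lck, Fyn and Zap70. It was the highest for 7 (18.9%, against 19.6%), which were Cd247, Lat, Lcp2, Grap2, Ptpn6, Pag1 and Dgka. Blimp1-flox 3 was the lowest for 8 members (21.6%, against 14.0%), among them Cd3d, Cd3g and Sla2. The most highs fell in WT 1 and WT 2, with 8 members each. Those in WT 1 (21.6%, against 9.71% of all tested genes) included Cd3e, Cd3g and Lck, and those in WT 2 (21.6%, against 14.6%) included Ptprc, Ptpn22, Rasgrp1 and Sos1. The part of depth or of B cell RNA in these extremes was not tested.

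**Figure D4:**
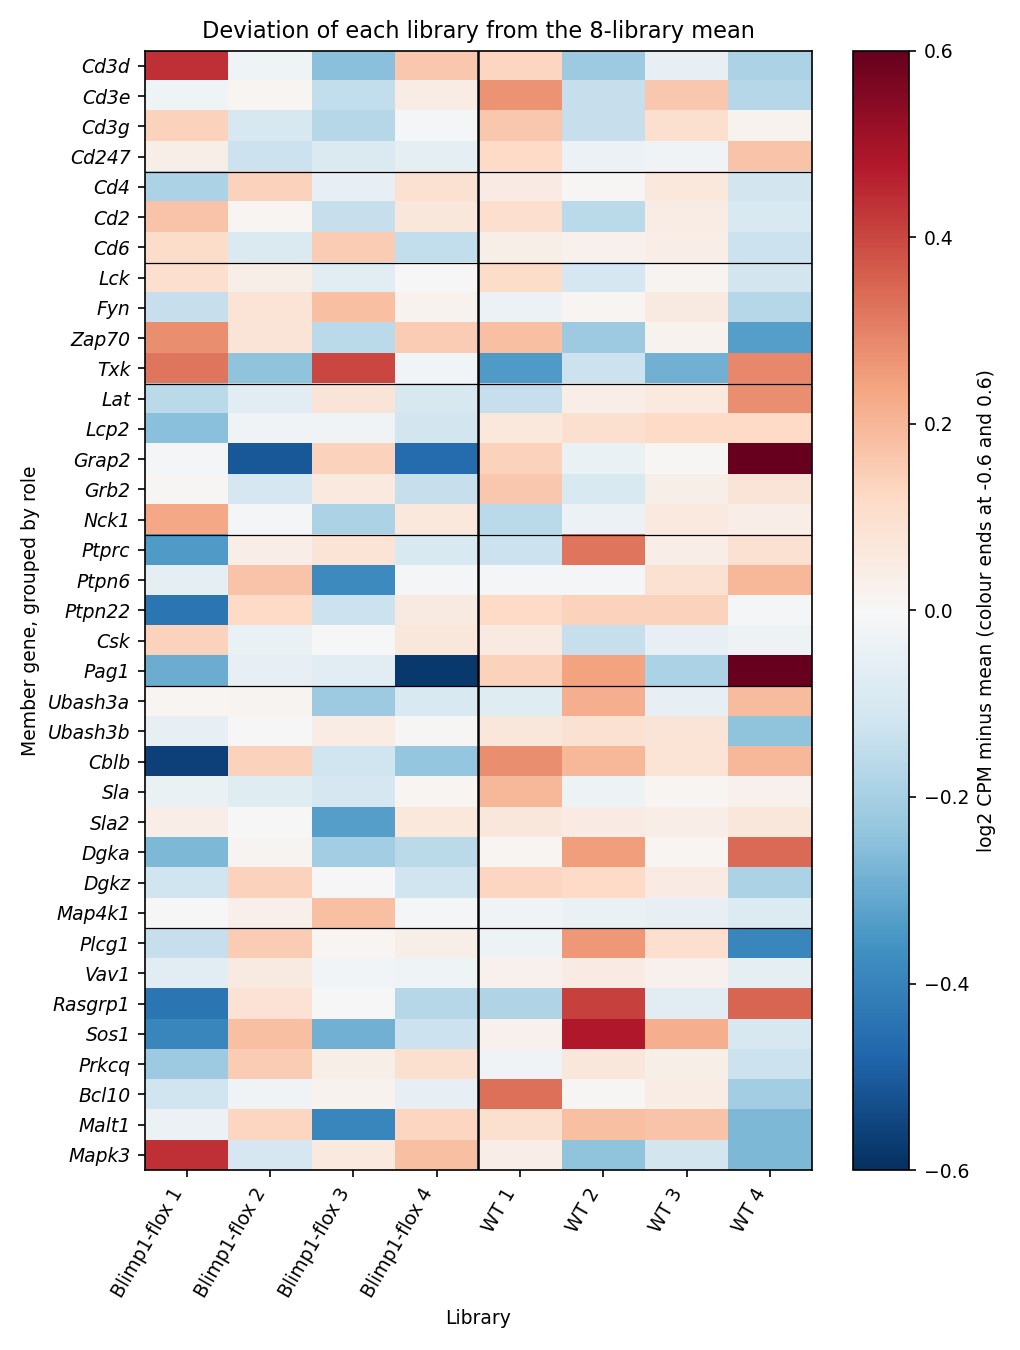
Colour gives log2 CPM of each member in each library minus the mean of the 8 libraries, with Blimp1-flox columns left of WT columns and genes grouped by role, and the colour scale ends at -0.6 and 0.6. Strong colours include Grap2 (0.74) and Pag1 (0.80) in WT 4, Pag1 in Blimp1-flox 4 (-0.58) and Cblb in Blimp1-flox 1 (-0.56). Grap2 is also low in Blimp1-flox 2 (-0.51) and Blimp1-flox 4 (-0.46). None of these genes has a strong colour in every library of a genotype.

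Leaving out WT 4 moved 4 members by more than 0.1 on the log2 fold change scale. Without it the values were -0.32 for Pag1, -0.23 for Grap2, 0.40 for Txk and -0.10 for Plcg1, and 4 members changed sign, each of them within 0.1 of 0 with all libraries. No member was called without WT 4, nor without WT 4 and Blimp1-flox 3 together.

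**Figure D5:**
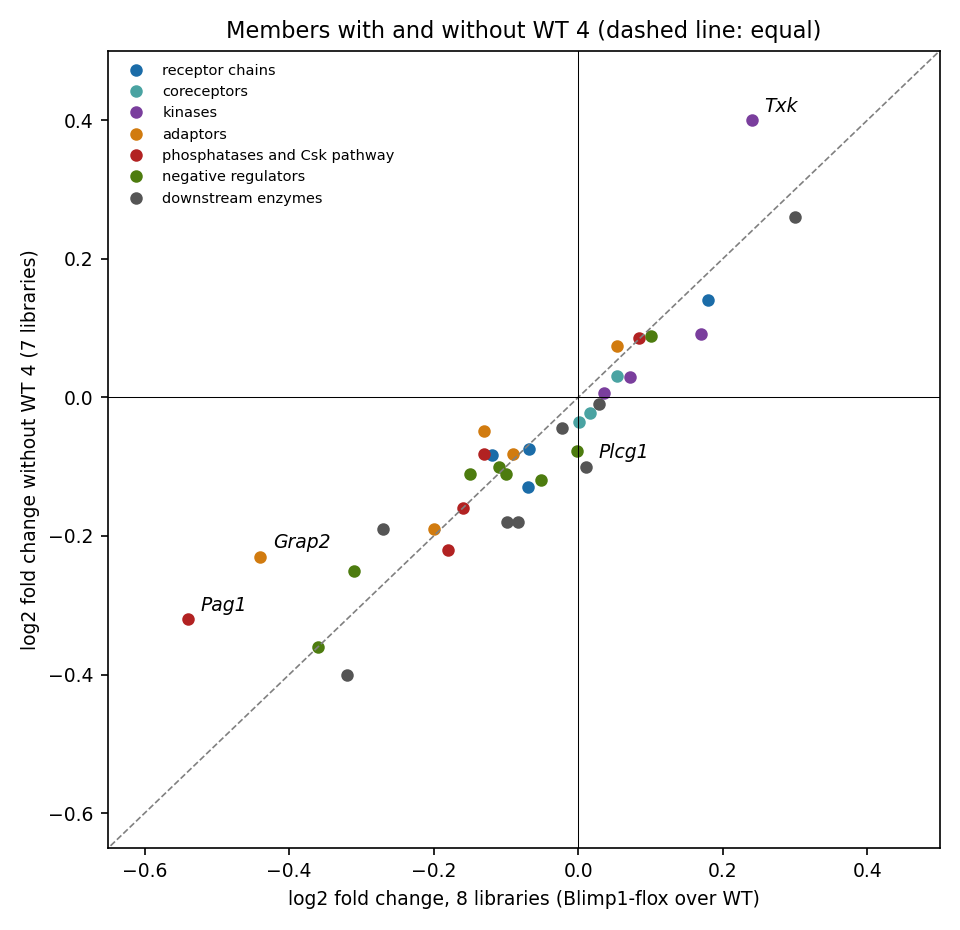
The log2 fold change of each member without WT 4 is plotted against that with all 8 libraries, coloured by role, with a dashed line of equality. The 4 labelled genes moved by more than 0.1, and Pag1 and Grap2 came closer to 0.

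A further 50 genes of the pathway, outside the 37, were read from the same fit. Of these 0 were called higher and 0 lower in edgeR. At an unadjusted p under 0.05 there were 16 (32.0%, against 16.2% of all tested genes), 9 higher (18.0%, against 7.11%) and 7 lower (14.0%, against 9.05%) in Blimp1-flox. The smallest p belonged to Itpr1, a calcium channel of the endoplasmic reticulum opened by the product of phospholipase C gamma. Itpr1 averaged 89.0 ± 5.69 CPM in Blimp1-flox and 68.0 ± 3.52 CPM in WT (SD, n = 4 each), without overlap, with a log2 fold change of 0.39 (0.19 to 0.58; edgeR adjusted p = 0.0845). It was called by both other tools. Ptpn7, a phosphatase of MAP kinases, averaged 474 ± 33.7 CPM in Blimp1-flox and 637 ± 115 CPM in WT, also without overlap (log2 fold change -0.43, edgeR adjusted p = 0.131), and DESeq2 and limma-voom called it too. Rasal3, a RAS GTPase-activating protein whose exons overlap A530088E08Rik, had -0.36 (edgeR adjusted p = 0.171). Over the 50 genes the log2 fold changes ran from -0.46 to 0.39 with a median of -0.032.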

How the data were processed

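The submitters' processing notes name STAR 2.5.2b as the aligner, mm10 as the build, and featureCounts from Subread 1.5.1 as the counter. The authors deposited whole-number counts for every gene, without normalization. The deposited table also holds each gene's summed exon length, another measure, used here to scale levels per kilobase. The sources used here do not give the annotation or strand setting, so members with overlapping exons are named as uncertain. Per the labels, library preparation used a KAPA mRNA kit. Depth was 16425538 to 27595939 counts per library, and members had 175 to 116379 counts in single libraries. Genes were filtered with filterByExpr and scaled by TMM. Genotype was tested with edgeR 4.0.16 (R 4.3.3, robust quasi-likelihood F test), with Benjamini-Hochberg adjustment over 12363 genes and a call at an adjusted p under 0.05. Standard errors and 95% intervals were derived from the F statistic. Alternatives were other scalings (RLE, upper quartile, totals alone), DESeq2 1.42.0, voom of limma 3.58.1 with quality weights, no filter, a filter at 10 CPM in 4 libraries, a replicate block, removal of a trend with gene length, a threshold of 0.10 and left-out libraries. The edgeR step was also run on simulated counts with known changes, and the share of small changes it recovered is not reported here.

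The 37 members, the list of 50 other pathway genes, the marker lists and the alternatives were chosen with earlier results of these data known. Values in every library are given for Prdm1, the 8 members with the smallest unadjusted p and the most abundant member per kilobase of each role. Of the other pathway genes, the 3 with the smallest p are named. Some single genes of the marker and pathway lists are not reported here by name.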

Additional observations from a re-analysis of the deposited data

Results flagged for a closer look

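In 86 groups of 4 libraries (each member, Prdm1, the 4 ratios and the B cell sum, in each genotype), 4 held 1 library far from the other 3, where chance gives about 1 in 20, or 4.3. WT 4 was low in Cd6, at 1229 CPM against 1367 to 1377 CPM in the other WT libraries. It was low in Ptpn22, at 756 CPM against 826 to 836 CPM, and in Ubash3b, at 73.3 CPM against 90.9 to 92.5 CPM. Blimp1-flox 3 was high in the log2 ratio of Sla over Sla2, at 3.36 against 3.05 to 3.08.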

How the results depend on the processing

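No member was called at an adjusted p under 0.05 in any of 18 other fits, whose smallest adjusted p of any member was 0.0806 (Cblb, limma-voom). Of the 37 members 24 kept the sign of their log2 fold change in all 18 fits and 13 did not. The median over members was below 0 in each fit and ran from -0.087 to -0.019 with 1 library left out (-0.031 without Blimp1-flox 3, -0.019 without WT 1). Members without overlap numbered 2 with all libraries, 2 to 6 with 1 library left out (6 without Blimp1-flox 2, or 16.2% against 16.3% of all tested genes, and 4 without Blimp1-flox 4, WT 3 or WT 4, or 10.8% against 9.54%, 11.9% and 11.8%), 5 without WT 4 and Blimp1-flox 3 (13.5% against 19.1%), and 1 with a gene length trend removed (2.70% against 9.19%). All genes called numbered 62, against 442 in DESeq2, 506 in limma-voom, 182 at a threshold of 0.10, 157 without WT 4 and Blimp1-flox 3, and 20 to 127 with 1 library left out (20 without Blimp1-flox 1, 23 without Blimp1-flox 4, 27 without WT 2, 94 without Blimp1-flox 3, 127 without WT 1), and 93 with no filter. Other pathway genes called higher numbered 1 in DESeq2, 2 in limma-voom, 1 with the length trend removed and 1 at 0.10, and those called lower 1 in DESeq2 and 1 in limma-voom. The call on Prdm1 was lost with no filter (log2 fold change -2.14, edgeR adjusted p = 0.0502) and without Blimp1-flox 1 (-2.21, edgeR adjusted p = 0.103), and its log2 fold change ran from -2.36 to -1.95 with 1 library left out. The difference in B cell marker sum was -213 CPM and ran from -285 CPM without WT 1, where it passed (exact permutation p = 0.0286), to -57.4 CPM without WT 4 (exact permutation p = 0.2). The cause of these shifts was not tested.

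Deviations of libraries with the same replicate number correlated at 0.1, 0.153, -0.102 and -0.108, so the numbers were not taken to pair libraries. With the replicate number as a block 52 genes and 0 members were called, and the median over members was -0.068. Depth limits the lowest members most, since Pag1 had as few as 175 counts in a library.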
